A study of Mus musculus with 10 samples.

Results

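The 10 genes described here carry out iron and heme handling in macrophages. They are Hmox1, Blvrb, Slc48a1, Tfrc, Slc11a2, Slc11a1, Ftl1, Fth1, Slc40a1 and Cp, out of 24538 genes in the count files. The list was chosen by gene name, with earlier results of these data known. All 10 passed the filter on low values, which 11571 genes passed, and each had a mean FPKM over 1 in both groups. They were compared between metastasis-associated macrophages (MAMs, 5 libraries) and resident alveolar macrophages (RAMs, 5 libraries).

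Both groups came from wild-type C57BL6/J female mice, and the labels give an age of 8 to 10 weeks. MAMs were the CD11B+CD11C- cells of lung metastases that followed tail vein injection of E0771-LG, a lung-metastatic derivative of a mouse mammary tumor cell line, at 6 to 8 weeks of age. Metastases were dissected on day 11 and, per the labels, pooled from 2 to 4 mice for a sample, while the study's methods give a wider range of mice. RAMs were the CD11B-CD11C+ cells of normal lungs without tumor cells. Within both tissues the gate took large cells positive for CD45, F4/80 and MRC1 and negative for LY6C, after digestion in the presence of transcription inhibitors. The groups therefore differ in cell type and in tissue at the same time, and these cannot be told apart here. In sorted bulk RNA, a different make-up of cells and a different amount of RNA per cell cannot be told apart either.

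Macrophages take up iron as transferrin-bound iron and as heme, most of it from engulfed red cells. Heme is carried out of the phagolysosome and broken down by heme oxygenase into biliverdin, carbon monoxide and ferrous iron. The iron is then stored in ferritin or exported through ferroportin, the only known iron exporter of mammalian cells. Alveolar macrophages are known to hold iron from the airspace, and iron-recycling macrophages of the spleen and liver are known for high heme oxygenase and ferroportin. Several of these transcripts carry iron-responsive elements, hairpins bound by the iron regulatory proteins when the cell is short of iron. A hairpin in the 5′ untranslated region lowers translation when bound, and hairpins in the 3′ untranslated region keep the transcript from decay.

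The hairpins of the members are shown because a read count sees only transcript abundance, so that for the genes with a 5′ hairpin the counts below leave protein output unmeasured, while for Tfrc the hairpins act on the abundance itself. Untranslated exons were searched for the loop CAGTGN flanked by 5 paired bases on each side, with an unpaired C just ahead of the 5 stem bases and G-T pairs allowed. This rule found at least 1 match in the 5′ untranslated region of 0.148% of 20916 genes and in the 3′ untranslated region of 0.613% of 21045 genes. Of the 10 members, 4 held a match. Capitals mark the loop, and positions are on GRCm38.
Tfrc, 3′, plus strand, chr16:32631220-32631246: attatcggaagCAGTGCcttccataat
Tfrc, 3′, plus strand, chr16:32631599-32631625: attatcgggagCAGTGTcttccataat
Tfrc, 3′, plus strand, chr16:32631664-32631690: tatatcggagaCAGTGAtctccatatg
Tfrc, 3′, plus strand, chr16:32631711-32631737: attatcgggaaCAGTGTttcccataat
Fth1, 5′, plus strand, chr19:9982733-9982759: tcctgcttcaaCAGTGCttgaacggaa
Ftl1, 5′, minus strand, chr7:45459780-45459806: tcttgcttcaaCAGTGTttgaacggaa
Slc40a1, 5′, minus strand, chr1:45925466-45925492: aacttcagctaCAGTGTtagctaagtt
No match in the other members, Slc11a2 among them, says only that this rule found none in their annotated untranslated regions. Elements with another loop or stem would be missed, so these members may still carry one.

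Of the 10 members, 8 were higher in MAMs, at an adjusted p under 0.05 and a change of over 2-fold, and 0 were lower. Over all 11571 genes tested, 15.3% were higher and 15.1% were lower by the same thresholds. On the adjusted p alone, 9 of 10 members passed, beside 56.2% of all genes. In the same 8 members every MAM library was above every RAM library, which held for 23.7% of all genes tested. The median log2 fold change of the members was 1.44, beside -0.02 for all genes tested. The genes that rose spanned heme transport and breakdown, endosomal iron uptake (Slc11a2), endolysosomal iron, ferritin and export, while the transferrin receptor gene Tfrc did not differ detectably and Cp, a ferroxidase gene, differed by less than 2-fold. Together the members took 1.88% ± 0.111 of normalised reads in MAMs against 0.726% ± 0.102 in RAMs (SD, n = 5 each).

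**Figure D1:**
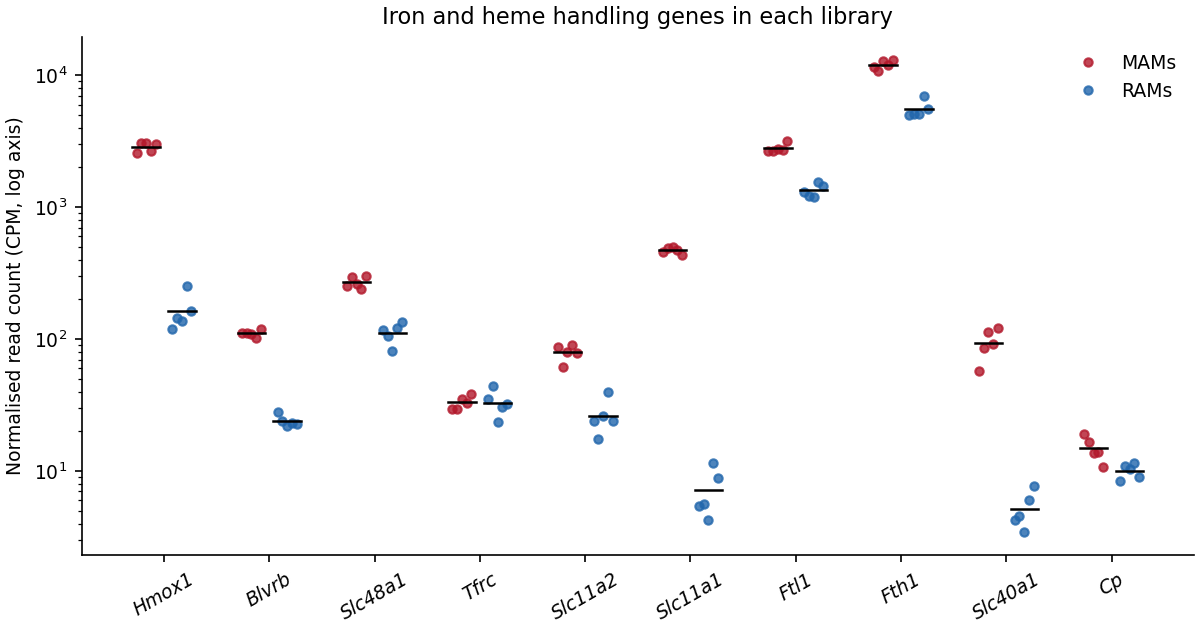
Normalised read count (CPM, counts scaled to library size with TMM factors, log axis) of the 10 members in each library, 5 MAM libraries in red and 5 RAM libraries in blue, with black bars at the group means. The groups overlap for Tfrc and Cp and are apart for the other 8 genes.

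The libraries carried the sorting markers they were labelled with. Itgam (CD11B) was at 6270 ± 417 CPM in MAMs and 64.3 ± 5.04 in RAMs, and Itgax (CD11C) at 171 ± 39.4 and 991 ± 91.8 (SD, n = 5 each). The RAM level of Itgam is 1.03% of the MAM level. Among the 116 genes above 1000 CPM in MAMs, the lowest RAM level was 0.912% of the MAM level, for the complement gene C1qb. Among the 81 genes above 1000 CPM in RAMs, the lowest MAM level was 1.07% of the RAM level. Ptprc (CD45) was at 966 CPM in MAMs and 1063 in RAMs, Adgre1 (F4/80) at 300.2 and 232, and Mrc1 at 1412 and 2625. The negative gate marker Ly6c2 was at 10.5 CPM in MAMs and 0.143 in RAMs, and Ly6c1 at 1.67 and 0.117.

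Alveolar macrophage markers, led by Chil3, were lower in MAMs for 10 of 11 tested, with summed levels of 295 to 574 CPM among MAMs against 10100 to 12800 among RAMs. Monocyte-derived and interstitial macrophage markers (among them Ccr2, Cx3cr1, C1qa, C1qb, C1qc, Apoe, Cd163, Folr2, Lyve1, Ms4a7, Csf1r) were higher in MAMs for 12 of 12, at 8180 to 9350 CPM across MAM libraries against 327 to 430 across RAM libraries. Of 7 monocyte markers, 6 were higher (among them Ly6c2, Ccr2, Plac8, Vcan and F13a1), and without Chil3 the list summed to 898 to 1090 CPM among MAMs against 20.4 to 37.4 among RAMs. No erythroid marker passed the filter. That list summed to 2.50 to 7.42 CPM across MAM libraries against 1.61 to 6.13 across RAM libraries, led by Alas2, with Slc4a1 at 0 to 8 counts in a library. The 6 globin genes of the list were at 0 in every library, but counting unique reads loses near-identical copies, so these zeros are uninformative. Neutrophil markers, led by Csf3r, summed to 104 to 247 CPM among MAMs against 93.1 to 121 among RAMs. Without Csf3r the sums were 5.88 to 36.7 CPM among MAMs and 21.0 to 49.8 among RAMs. S100a8, S100a9 and Csf3r were higher and Cxcr2 lower in MAMs, with overlap between the groups for S100a9 and Cxcr2. Endothelial and stromal markers summed to 47.8 to 103 CPM across MAM libraries against 8.90 to 16.7 across RAM libraries, with Pecam1, Cdh5, Kdr, Col1a1 and Pdgfra higher. Epithelial and tumor markers, led by Krt19 and lower in MAMs for 6 of 8 tested, summed to 17.6 to 28.4 CPM among MAMs against 616 to 739 among RAMs. Without Krt19 the sums were 13.4 to 22.5 and 226 to 255 CPM. Not all genes of the list ran this way, and Krt8 was at 0.615 to 3.31 CPM among MAMs against 0 to 0.205 among RAMs. Besides Krt19, most of the RAM sum was Cdh1 (107 to 150 CPM) and Epcam (49.2 to 100). Among RAMs Sftpc was at 6.74 to 22.6 CPM and Scgb1a1 at 9.16 to 11.8. Dissociation markers summed to 3150 to 3720 CPM across MAM libraries against 2820 to 3170 across RAM libraries, led by Zfp36, with Ier3, Atf3, Hspa1a and Hspa1b higher and Fosb lower in MAMs. Proliferation genes, led by Mki67 and lower in MAMs for 9 of 12 tested, summed to 243 to 328 CPM among MAMs against 1030 to 1360 among RAMs. Lymphocyte markers, led by Cd79a, stayed at or under 22.3 CPM in every library, and dendritic cell markers at or under 29.3, with Ccr7 higher and Clec9a lower in MAMs. The part of these lists in the results below was not tested.

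The inducible heme oxygenase gene Hmox1 (chr8:75093621-75100589) was among the most abundant transcripts of MAMs. Its level in the 5 MAM libraries was 2583, 3066, 3064, 2678 and 3011 CPM, and in the 5 RAM libraries 119, 144, 138, 252 and 165 CPM. The lowest MAM library was above the highest RAM library by a wide margin, and RAM replicate 4 was the highest of its group. This is a 17.6-fold difference, a log2 fold change of 4.14 (SE 0.177, adjusted p = 3.1e-11), with a 95% confidence interval of 3.76 to 4.52. By mean CPM Hmox1 ranked 18 among all genes tested in MAMs and 1226 in RAMs.

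Hmox2, the constitutive heme oxygenase gene, differed much less. It was at 49.4 to 73.7 CPM across MAM libraries against 25.1 to 38.3 across RAM libraries, a log2 fold change of 1.10 (SE 0.145, adjusted p = 1.1e-05). Length-scaled levels (FPKM) of Hmox1 were 18.9 ± 3.20 times those of Hmox2 in MAMs and 2.63 ± 0.735 times in RAMs (SD, n = 5 each). The ratio was 14.8 to 23.8 in MAMs and 2.03 to 3.82 in RAMs, without overlap (p = 0.00794 in a two-sided exact permutation test, which 5 against 5 libraries cannot go below).

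Blvrb (chr7:27447978-27466144) encodes biliverdin reductase B, an NADPH-dependent flavin and biliverdin reductase. It varied little within the groups, at 112, 112, 109, 102 and 120 CPM in MAMs and 27.9, 23.8, 22.0, 23.1 and 22.6 in RAMs. All MAM libraries were above all RAM libraries, and the coefficient of variation was 5.98% in MAMs and 9.79% in RAMs. Blvrb was 4.64-fold higher in MAMs, a log2 fold change of 2.21 (SE 0.0994, adjusted p = 5.3e-11). Blvra, the gene of the main biliverdin reductase of adult tissue, went the opposite way. It was at a mean of 44.0 CPM in MAMs, where all libraries lay below the 67.9 to 90.8 CPM of RAMs, a log2 fold change of -0.88 (SE 0.125, adjusted p = 2.3e-05), short of 2-fold.

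The heme transporter gene Slc48a1 (HRG1, chr15:97778520-97792692) moves heme from the phagolysosome to the cytosol. Its level was 251, 295, 261, 238 and 300.2 CPM in MAMs and 117, 106, 81.3, 122 and 134 in RAMs. The groups were apart, with a 2.41-fold difference and a log2 fold change of 1.27 (SE 0.120, adjusted p = 3e-07). Slc48a1 overlaps Hdac7 on the opposite strand, and the strand setting of the counting is not given in the sources used here, so reads of the shared stretch cannot be assigned with certainty.

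Slc11a1 (NRAMP1, chr1:74375195-74386062) encodes a divalent metal transporter that pumps iron and manganese out of the phagosome and is known for resistance to intracellular microbes. It had the largest difference of the members. Its level was 456, 494, 501, 474 and 437 CPM in MAMs and 5.41, 5.63, 4.22, 11.6 and 8.78 in RAMs. The MAM libraries were close together, while the RAM libraries spread more, with replicates 4 and 5 the highest. The fold was 66.5, a log2 fold change of 6.05 (SE 0.245, adjusted p = 1.6e-11), with a 95% confidence interval of 5.53 to 6.58. The RAM mean was 1.51% of the MAM mean. The lowest such share among abundant MAM genes was 0.912% (C1qb, above), and whether reads of other cells make up part of the RAM level was not tested. With 1% of the other group's mean level, as a share of counts, subtracted from each library, an alternative chosen after seeing the data, the log2 fold change was 7.30.

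Slc11a2 (DMT1, chr15:100387898-100425072), the paralog that brings ferrous iron out of the transferrin endosome, differed less. It was at 86.7, 61.6, 80.3, 90.3 and 78.9 CPM in MAMs and 23.9, 17.5, 26.1, 39.5 and 24.0 in RAMs. The groups did not overlap, and RAM replicate 4 was again the highest RAM library. Slc11a2 was 3.04-fold higher in MAMs, a log2 fold change of 1.60 (SE 0.184, adjusted p = 2.5e-06). It overlaps the predicted gene Gm5475 on the opposite strand. The order of the paralogs differed between the groups. The ratio of Slc11a1 to Slc11a2 FPKM was 9.99 ± 2.39 in MAMs, with a range of 8.18 to 14.1, and 0.434 ± 0.132 in RAMs, with a range of 0.264 to 0.626 (SD, n = 5 each, exact permutation test, two-sided, p = 0.00794).

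The transferrin receptor gene Tfrc (chr16:32608920-32632794), whose transcript carries the 4 hairpins shown above, did not differ detectably. It was at 29.5, 29.6, 35.4, 32.6 and 38.3 CPM in MAMs and 34.9, 44.1, 23.4, 30.5 and 32.0 in RAMs. The MAM values lay inside the range of the RAM values. The log2 fold change was 0.00 (SE 0.160, adjusted p = 0.985). Its 95% confidence interval of -0.34 to 0.35 leaves out a 2-fold difference in either direction. A difference within that interval was not detectable with these libraries.

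The ferritin genes were the most abundant members in both groups. Fth1 (chr19:9980598-9985098), the heavy chain with ferroxidase activity, was at 11643, 10837, 12717, 12056 and 12974 CPM in MAMs and 5014, 5058, 5101, 6941 and 5562 in RAMs. The groups were apart, and RAM replicate 4 was the highest RAM library. Fth1 ranked 3 among all genes in MAMs and 6 in RAMs. It was 2.18-fold higher in MAMs, a log2 fold change of 1.12 (SE 0.0885, adjusted p = 3.7e-08).

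Ftl1 (chr7:45457944-45459884), the light chain of the ferritin shell, differed by a similar amount. Its level was 2686, 2685, 2741, 2713 and 3166 CPM in MAMs and 1314, 1226, 1184, 1539 and 1443 in RAMs. No MAM library was near a RAM library, and MAM replicate 5 was the highest of all. The fold was 2.09, a log2 fold change of 1.06 (SE 0.0808, adjusted p = 2.4e-08). Both ferritin folds lie close to 2. Under upper-quartile scaling, which moves the median of all genes by -0.16, they were 0.96 for Fth1 and 0.90 for Ftl1 on the log2 scale, under the 2-fold threshold with adjusted p still under 0.05. Tested against a 2-fold change instead of no change, Fth1 had an adjusted p of 0.122 and Ftl1 of 0.325.

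The balance of the ferritin chains was not detectably different. Fth1 FPKM was 3.68 ± 0.219 times Ftl1 FPKM in MAMs and 3.64 ± 0.256 times in RAMs (SD, n = 5 each, exact permutation test, two-sided, p = 0.770). Ferritin genes have processed copies in the mouse genome, and Ftl1 overlaps Gm10252 and Gm22133, so counts of unique reads are uncertain in level for both chains.

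Slc40a1 (ferroportin, chr1:45908068-45926523), the iron exporter, was low in RAMs. Its level was 56.9, 85.2, 113, 91.1 and 122 CPM in MAMs and 4.26, 4.55, 3.46, 5.99 and 7.74 in RAMs. All MAM libraries were above all RAM libraries, but Slc40a1 had the widest spread of any member among MAMs, with a coefficient of variation of 27.4%, and MAM replicate 1 was the lowest. The fold was 18.1, a log2 fold change of 4.17 (SE 0.252, adjusted p = 1.6e-09), with a 95% confidence interval of 3.64 to 4.71, and on log2(FPKM + 1) it was 3.39. Set against the receptor gene within each library, Slc40a1 FPKM was 4.65 ± 0.885 times that of Tfrc in MAMs and 0.294 ± 0.10 times in RAMs (SD, n = 5 each). The ranges were 3.18 to 5.33 and 0.198 to 0.420, without overlap (exact permutation test, two-sided, p = 0.00794).

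Cp (chr3:19957054-20009145) encodes ceruloplasmin, the copper ferroxidase that loads exported iron onto transferrin. It was at 19.2, 16.6, 13.8, 14.0 and 10.8 CPM in MAMs and 8.44, 10.8, 10.4, 11.6 and 9.04 in RAMs. MAM replicate 5 lay inside the RAM range, and the other 4 MAM libraries were above it. The log2 fold change was 0.56 (SE 0.203, adjusted p = 0.0283), short of 2-fold. The adjusted p was 0.104 under upper-quartile scaling, and 0.0821, 0.0584, 0.0697 and 0.0584 without MAM replicate 1, MAM replicate 2, RAM replicate 1 and RAM replicate 5. Cp overlaps Hps3 on the opposite strand.

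**Figure D2:**
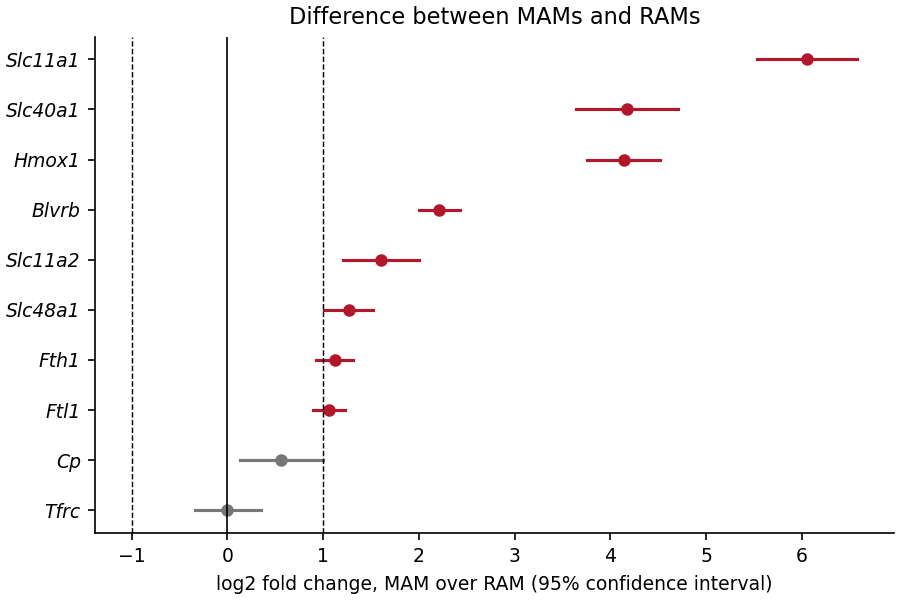
log2 fold change of MAMs over RAMs for each member (points) with its 95% confidence interval (lines), from the test on counts. Red genes changed over 2-fold at an adjusted p under 0.05, grey genes did not, and dashed lines mark a 2-fold change. Slc11a1 is at 6.05, Slc40a1 at 4.17 and Hmox1 at 4.14, while the interval of Tfrc spans 0.

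Levels between genes were compared on FPKM, which scales by transcript length. In MAMs the order was Fth1 (15690 ± 1026), Ftl1 (4274 ± 273), Hmox1 (2142 ± 183), Slc11a1 (208 ± 15.8), Blvrb (181 ± 10.8), Slc48a1 (120 ± 11.7), Slc40a1 (24.3 ± 6.50), Slc11a2 (21.4 ± 3.36), Tfrc (5.18 ± 0.687) and Cp (2.46 ± 0.681), each as FPKM with SD over 5 libraries. Neighbours in this order overlapped between libraries for Slc11a1 and Blvrb and for Slc40a1 and Slc11a2, and were apart otherwise.

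The RAM order kept ferritin and Hmox1 at the top and placed other genes last. It ran Fth1 (7560 ± 1151), Ftl1 (2078 ± 250), Hmox1 (126 ± 41.3), Slc48a1 (50.9 ± 8.84), Blvrb (42.1 ± 3.35), Slc11a2 (7.61 ± 2.82), Tfrc (4.79 ± 1.16), Slc11a1 (3.26 ± 1.41), Cp (1.48 ± 0.265) and Slc40a1 (1.36 ± 0.432) FPKM. Here Slc48a1 and Blvrb, Slc11a2 and Tfrc, Tfrc and Slc11a1, and Cp and Slc40a1 overlapped. Slc11a1 moved from place 8 in RAMs to place 4 in MAMs, and Slc40a1 from place 10 to place 7.

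**Figure D3:**
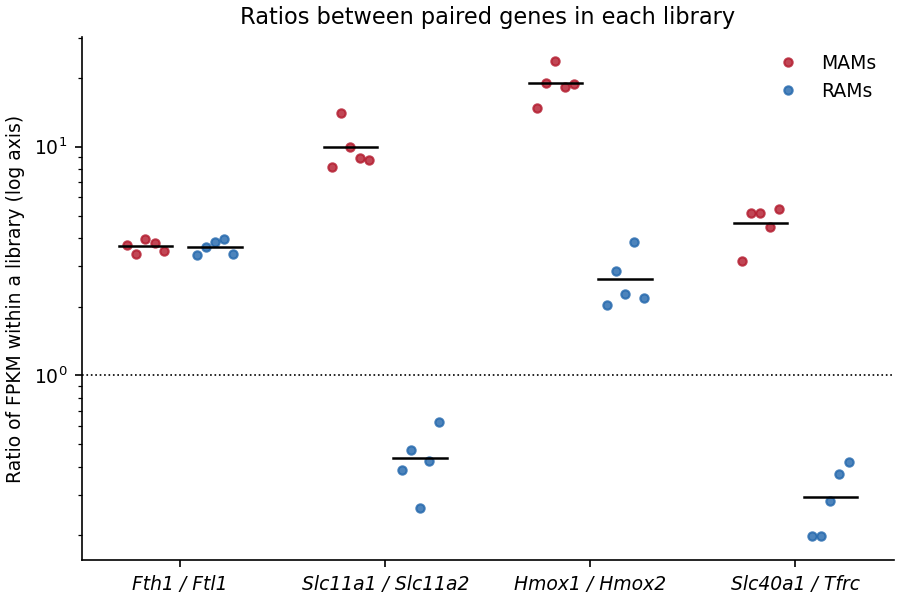
Ratio of the FPKM of paired genes within each library (log axis), 5 MAM libraries in red and 5 RAM libraries in blue, with black bars at the group means and a dotted line at equal levels. Fth1 to Ftl1 is near 3.7 in both groups, while the ratios of Slc11a1 to Slc11a2 and Slc40a1 to Tfrc are over 1 in every MAM library and under 1 in every RAM library.

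Across the 8475 genes with a mean of at least 10 CPM, profiles over the 10 libraries were compared with those of 4 members by the root mean square difference of mean-centred log2 CPM. These profiles share libraries and depth, and the differences are a description. The measure includes the difference between MAMs and RAMs, so genes with a similar log2 fold change lie close to each other. The profiles closest to Hmox1 were Helz2 (0.205), AB124611 (0.220) and Nlrc5 (0.238), with log2 fold changes of 3.89, 4.26 and 4.01. For Slc40a1 they were Bcl2 (0.314), Arhgap10 (0.323) and Hmox1 (0.337). For Slc11a1 they were Anpep (0.243), Sdc4 (0.246) and Blnk (0.261). The nearest to Tfrc were Gtf2h2 (0.156), Nkiras1 (0.156) and Chm (0.157), genes that also had log2 fold changes near 0.

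A wider list of 80 iron and heme genes held 61 that passed the filter. Of these, 12 were higher and 13 lower in MAMs, and 36 did not meet both thresholds. On the adjusted p alone, 18 were higher and 22 lower, while 28.9% of all genes tested were higher and 27.3% lower on that measure. The list's median log2 fold change was -0.25. Its shares of 19.7% higher and 21.3% lower lie a little over the 15.3% and 15.1% of all genes tested.

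**Figure D4:**
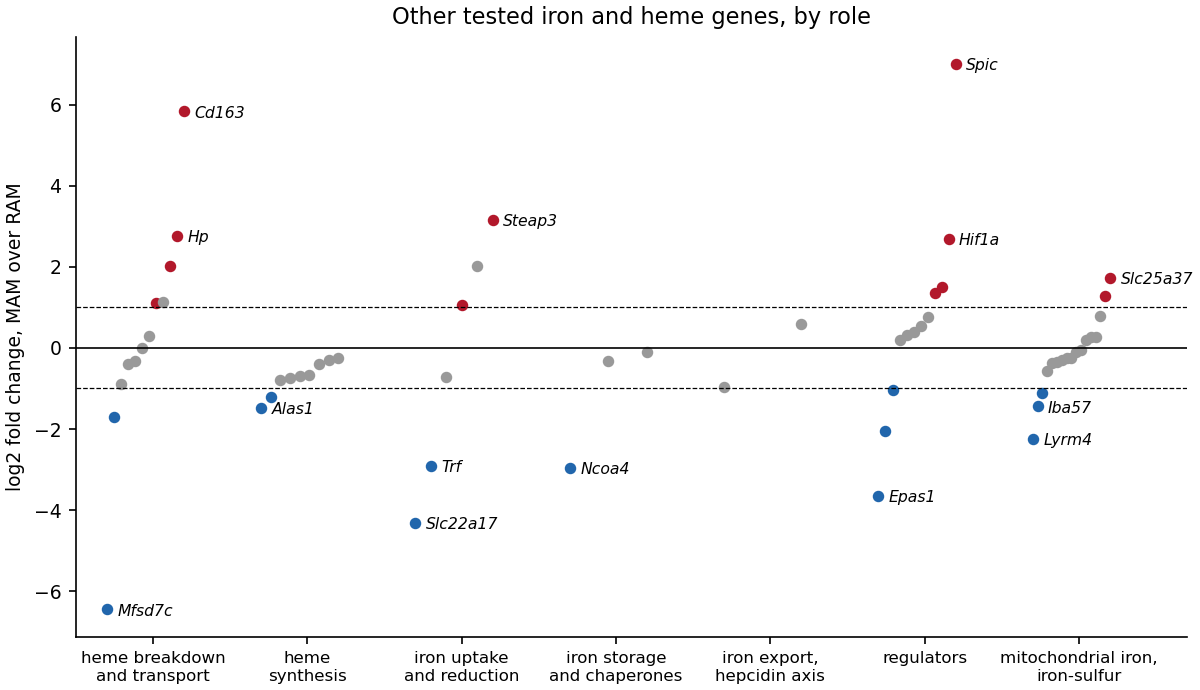
log2 fold change of MAMs over RAMs for the 61 other tested iron and heme genes, by role. Red genes were higher and blue genes lower by over 2-fold at an adjusted p under 0.05, grey genes did not meet both thresholds, dashed lines mark a 2-fold change, and the genes named are among the largest differences of their role. Heme synthesis holds no gene on the higher side, and the regulators run from -3.64 for Epas1 to 7.0 for Spic.

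Among genes of heme scavenging, breakdown and transport, 4 of 12 tested were higher and 2 lower. Cd163, the scavenger receptor for haptoglobin-bound hemoglobin, was at 14.5 to 31.5 CPM across MAM libraries against 0.240 to 0.668 across RAM libraries, a log2 fold change of 5.83 (SE 0.339, adjusted p = 1e-09), with 2.28 on log2(FPKM + 1) and 6.84 after the subtraction of 1%. Cd163 also stands in the marker list of interstitial macrophages above. Haptoglobin (Hp) was low in both groups, at 3.21 to 14.2 and 0.0901 to 2.04 CPM, with a log2 fold change of 2.76 (SE 0.666, adjusted p = 0.00245).

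The paralogs Flvcr1 and Flvcr2, described as heme transporters and listed in the files as Mfsd7b and Mfsd7c, differed in opposite directions. Mfsd7b was at 55.8 to 70.0 CPM among MAMs against 13.8 to 16.6 among RAMs, a log2 fold change of 2.01 (SE 0.114, adjusted p = 7.9e-10). Mfsd7c was at 1.06 to 2.09 CPM across MAM libraries against 104 to 156 across RAM libraries, a log2 fold change of -6.45 (SE 0.193, adjusted p = 5.8e-13). The MAM mean of Mfsd7c is 1.15% of the RAM mean, while the lowest such share among abundant RAM genes was 1.07%. The log2 fold change of Mfsd7c was -10.48 with 1% of the other group's level subtracted and -4.80 on log2(FPKM + 1).

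Of 9 tested genes of heme synthesis, 0 were higher and 2 were lower by over 2-fold, and 6 had a lower level at an adjusted p under 0.05, which held for 27.3% of all genes tested. Alas1, the rate-limiting enzyme outside red cells, was at 54.5 to 78.5 CPM among MAMs against 170 to 207 among RAMs, a log2 fold change of -1.47 (SE 0.0997, adjusted p = 6.2e-09). All MAM libraries were below all RAM libraries for Alas1.

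For iron uptake and reduction, 2 of 6 tested genes were higher and 2 lower. Steap3, the endosomal ferrireductase that works ahead of Slc11a2, was at 49.4 to 76.7 CPM across MAM libraries against 5.00 to 10.2 across RAM libraries, a log2 fold change of 3.16 (SE 0.215, adjusted p = 6.7e-09). Transferrin (Trf) was at 89.3 to 157 CPM among MAMs against 865 to 990 among RAMs, a log2 fold change of -2.90 (SE 0.121, adjusted p = 2.4e-11). Slc22a17, a receptor for the siderophore-binding protein lipocalin, was at 0.492 to 2.39 and 17.9 to 23.5 CPM, a log2 fold change of -4.31 (SE 0.389, adjusted p = 1.7e-07). Steap3 and Slc11a2 were both higher in MAMs, while Tfrc, the receptor of the same endosomal route, did not differ detectably.

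Of 3 tested genes of iron storage and chaperones, 1 was lower. It was Ncoa4, the receptor that delivers ferritin to the lysosome for breakdown, at 14.9 to 20.5 CPM across MAM libraries against 128 to 137 across RAM libraries. The log2 fold change of Ncoa4 was -2.95 (SE 0.103, adjusted p = 3.3e-12). The ferritin genes were higher in the same libraries. Of the genes of iron export and the hepcidin axis, 2 of 10 passed the filter and neither reached 2-fold.

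The regulators were split, with 4 of 12 higher and 3 lower. Of the genes of the iron regulatory proteins, Aco1 was lower in MAMs, with a log2 fold change of -1.05 (SE 0.137, adjusted p = 1e-05). Ireb2 did not differ detectably, at 0.19 (SE 0.0962, adjusted p = 0.106). Activity of these proteins was not measured. Spic, a transcription factor known for the red pulp macrophages that recycle iron, was at 6.55 to 22.3 CPM among MAMs against 0.0601 to 0.298 among RAMs. Its log2 fold change was 7.0 (SE 0.515, adjusted p = 1.6e-08), with 3.46 on log2(FPKM + 1) and 8.92 after the subtraction of 1%. MAM replicate 1, the lowest for Slc40a1, was also the lowest for Spic, Hmox1 and Tfrc, but not for Cd163. Whether these levels go together was not tested. The hypoxia-inducible factor genes moved in opposite directions. Hif1a was at 581 to 689 CPM across MAM libraries against 89.0 to 115 across RAM libraries, a log2 fold change of 2.68 (SE 0.0913, adjusted p = 2.4e-12), and Epas1 was at 2.15 to 6.89 and 43.7 to 82.0 CPM, a log2 fold change of -3.64 (SE 0.311, adjusted p = 9.3e-08).

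Among the factors known to act on Hmox1, the main activator and repressor genes differed by less than 2-fold. Of the genes of their partners, Keap1, Mafg and Maff differed by more and Mafk did not. Nfe2l2 (NRF2), its activator, had a log2 fold change of 0.33 (SE 0.0821, adjusted p = 0.00274), and Bach1, its heme-sensing repressor, one of 0.53 (SE 0.103, adjusted p = 0.00046). Every MAM library was above every RAM library for both, at 504 to 648 against 408 to 464 CPM for Nfe2l2 and 172 to 222 against 113 to 155 for Bach1. Keap1, which holds NRF2 back, had a log2 fold change of 1.35 (SE 0.158, adjusted p = 3e-06). The small Maf genes, whose proteins pair with NRF2 and BACH1, were split. On the log2 scale Mafg was at 1.49 (SE 0.152, adjusted p = 6.7e-07) and Maff at -2.04 (SE 0.225, adjusted p = 1.6e-06). Mafk was at 0.40 (SE 0.141, adjusted p = 0.0248), short of 2-fold. The genes of this paragraph and Mfsd7b, Hmox2, Blvra, Aco1 and Ireb2 were named after their values were seen.

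Of 17 mitochondrial iron and iron-sulfur genes, 2 were higher and 3 lower. Slc25a37 (mitoferrin), which brings iron into mitochondria, was at 121 to 143 CPM among MAMs against 30.5 to 48.1 among RAMs, a log2 fold change of 1.72 (SE 0.118, adjusted p = 7e-09). Lyrm4, a partner of the cysteine desulfurase of iron-sulfur cluster assembly, had a log2 fold change of -2.25 (SE 0.222, adjusted p = 4.7e-07). Iba57, which acts late in that assembly, had one of -1.44 (SE 0.316, adjusted p = 0.00119).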

How the data were processed

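RNA from 5 MAM and 5 RAM samples was amplified and sequenced as paired reads. The authors aligned reads to GRCm38 with TopHat 2.0.13 and deposited counts of uniquely mapped reads per gene from HTSeq 0.6.1, and FPKM values from Cufflinks 2.2.1. Whether the counting used strand is not given in the sources used here. Lines naming no gene were left out. They made up 54.6% to 58.3% of a MAM library and 62.2% to 64.1% of a RAM library, so this share differs between the groups. A library held 50746305 to 87523247 counts on genes. By the study's methods a normal lung sample is 1 mouse and a metastasis sample is pooled. Libraries of a group differed by more than sampling noise, and none was a copy.

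The genes tested had a mean FPKM of 1 or more in MAMs or RAMs. They were fitted with edgeR 4.0.16 (quasi-likelihood test, TMM scaling, R 4.3.3) and Benjamini-Hochberg adjustment over all 11571 genes. A call needed an adjusted p under 0.05 and a change of over 2-fold. Single ratios were compared by exact permutation tests (scipy 1.17.1). The script was tested on simulated data. Hairpins and positions came from the GENCODE M21 annotation of GRCm38, and 3 listed symbols were matched to the files through RefSeq synonyms. The other genes named were the up to 3 largest called differences of each role, sorting markers, the leading gene and the called markers of each marker list, and the 3 profiles closest to each of 4 members. Some genes that this rule names are not reported here. Members and lists were chosen with earlier results of these data known. Alternatives were DESeq2 1.42.0, RLE and upper-quartile scaling, other filters, limma 3.58.1 on log2 of the deposited FPKM plus 1 or 0.1, a replicate block, a test against a 2-fold change, and each library left out.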

Additional observations from a re-analysis of the deposited data

Results flagged for a closer look

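Each member was checked in each group of 5 libraries, 20 groups in all, for 1 library far from the others (the gap to the nearest library over 0.71 of the group's range). Such a gap is met by chance in about 1 of 20 groups, and 2 were found, both in ferritin genes. Ftl1 in MAM replicate 5 was at 3166 CPM, while the other 4 MAM libraries were at 2685 to 2741. Fth1 in RAM replicate 4 was at 6941 CPM, while the other 4 RAM libraries were at 5014 to 5562. RAM replicate 4 was also the highest RAM library for Hmox1, Slc11a1, Slc11a2, Ftl1 and Cp. RAM replicate 5 was the highest for Slc48a1 and Slc40a1, and other RAM libraries were the highest for Blvrb and Tfrc. Markers higher in MAMs were mixed in RAM replicate 4. Itgam was at 72.2 CPM, beside 59.5 to 66.1 in the other RAM libraries, and C1qb at 24.2, beside 17.1 to 21.5. Ccr2 was the lowest there, at 11.1, beside 12.5 to 17.4. What sets RAM replicate 4 apart was not tested. Without RAM replicate 4 the log2 fold change of Fth1 was 1.21 and that of Ftl1 1.11.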

How the results depend on the processing

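The direction of the 9 members other than Tfrc was the same under every alternative, and 8 members were called higher and 0 lower under each except upper-quartile scaling and the test against a 2-fold change, which each called 6 (Fth1 and Ftl1 were lost in both). Under the test against a 2-fold change Cp, at 0.56 on the log2 scale, had an adjusted p of 1, Fth1, at 1.12, one of 0.122, and Ftl1, at 1.06, one of 0.325, and 1112 of all genes were called lower instead of 1745. Under upper-quartile scaling Cp was at 0.40 (adjusted p = 0.104) and Tfrc at -0.16 (adjusted p = 0.417). With each library left out in turn, Tfrc ran from -0.10 to 0.13, Cp from 0.46 to 0.66, and the members with an adjusted p under 0.05 from 8 to 9. No pairing by replicate number was detected, as the deviations of same-numbered libraries had correlations of -0.037 to 0.029. Whether same-numbered libraries were handled together is not given in the sources used here. With the replicate number as a block, Cp was at 0.55 (adjusted p = 0.0612), 8 members were called higher, and 8 had an adjusted p under 0.05. With 1% of the other group's level subtracted, chosen after seeing the data, 8 members were called higher and 0 lower. Without a filter 2349 of all genes were called higher and 2323 lower. Several genes low in one group moved in size, without a change of direction or call, between log2(FPKM + 1) and the subtraction of 1%: Slc40a1 from 3.39 to 4.43, Slc11a1 from 5.67 to 7.30, Cd163 from 2.28 to 6.84, Spic from 3.46 to 8.92, Mfsd7c from -4.80 to -10.48, Slc22a17 from -2.71 to -4.68 and Epas1 from -2.70 to -3.85. Both of these settings change low values by construction, the first by adding 1 FPKM and the second by removing 1% of the other group's level. The cause of the other shifts was not tested, beyond the number of genes tested and the threshold itself. Where a library shows 0 counts, up to 3 counts (0.0431 to 0.0671 CPM) stay possible from counting error alone.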

Other observations

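Of the wider list of iron and heme genes, 19 did not pass the filter on low values and enter no comparison. Hamp, the gene of the iron hormone hepcidin, had 0 to 98 counts in a library, Heph, a ferroxidase gene, 0 to 16, and Tfr2, the gene of the other transferrin receptor, 0 to 25. Steap2, an iron and copper reductase gene, had the highest single count, 636, and was at 0 in at least 1 library. Ftmt, Hephl1, Hamp2 and Hfe2 were at 0 in every library.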
